A study of Mus musculus with 32 samples.

Results

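The p53 targets grouped under cell-cycle arrest, growth control and repair were followed in 10 genes, Cdkn1a, Mdm2, Ccng1, Trp53inp1, Phlda3, Sesn1, Btg2, Aen, Gdf15 and Fas. Of these, Trp53inp1, Aen and Fas also take part in cell death. They were taken by symbol from a table of 27728 genes counted in 32 RNA-seq libraries of mouse blood progenitors. All 10 were in the table, and all 10 passed the filter on low counts in each fit. Positions are given on GRCm38 from the GENCODE M21 annotation. Cdkn1a is overlapped on the other strand by AC167363.2, and Sesn1 and Fas on their own strand by 9930024M15Rik and Gm27818, and reads in these overlaps cannot be assigned without the counting rule. The transcription factor p53 is held low in unstressed cells by Mdm2, a ubiquitin ligase that marks it for destruction and is itself a p53 target. When p53 is stabilised it binds response elements near its target genes and raises genes that stop the cell cycle, slow growth signalling, repair DNA or start cell death. Blood progenitors are among the cells in which this response is readily induced.

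The study concerned U2af1, which encodes a subunit of the splicing factor that recognises the 3′ splice site, and asked how much of it progenitors need. Progenitors were sorted as Lin- cKit+ Sca1- cells. The fetal libraries came from E14.5 liver. Fetal groups were U2af1(flox/flox) without Cre (flox control, n = 3), Vav1-Cre with U2af1(wt/flox) (heterozygous deletion, n = 3), Vav1-Cre with U2af1(flox/flox) (homozygous deletion, n = 3), Vav1-Cre with U2af1(wt/S34F) (S34F, n = 4) and Vav1-Cre alone (n = 2). Vav1-Cre acts from early in the blood lineage. S34F swaps 1 residue in a zinc finger of the U2af1 protein and recurs in blood cancers. The labels put the flox control, both deletions and 1 Vav1-Cre library in batch A, and the S34F libraries and the other Vav1-Cre library in batch B. The submitters caution that batch may affect gene-level differences among the fetal libraries. The adult libraries came from bone marrow. All 3 dose groups carried Mx1-Cre, rTA, the tgU2AF1(WT) transgene and U2af1(flox/S34F), were given pIpC to induce the Cre, and ate doxycycline chow. The chow held 10000 ppm in 4 libraries, 2500 ppm in 6 and 1250 ppm in 4. In such mice deletion of the floxed allele leaves S34F as the endogenous allele, and doxycycline turns on a wild-type U2AF1 transgene. The adult control carried the same Mx1-Cre, rTA and tgU2AF1(WT) with U2af1(wt/wt) and was left untreated (n = 3), so genotype, pIpC and doxycycline all differ at once between it and each dose group. Neither the efficiency of deletion nor the level of the transgene is given in the labels.

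Libraries held 26588099 to 71251200 counts. U2af1 and Trp53, the gene of p53 itself, were not analysed here, and so the genotype labels could not be tested against expression of the targeted gene. The 5 progenitor markers (Kit, Cd34, Gata2, Myb, Mpo) were present in all groups, at levels that differed between some of them. Summed hepatocyte markers (9 measured of 12) were 101 to 634 counts per 1000000 counts (CPM) in the flox control, 49.8 to 122 in the heterozygous deletion and 11.4 to 30.8 in the homozygous deletion. They were 24.2 to 53.3 CPM in the S34F libraries. Alb, Ttr and Fgb were at 0 in all adult groups. Adult library 2 at 10000 ppm stood apart, with 1891 CPM of the immediate-early gene Fos and 606 CPM of erythroid markers (3 measured of 6) against 27.9 to 57.1 CPM in the other 3 libraries of its dose. Adult control library 3 alone among the adults held no reads of the Y-linked transcript used to score sex. Among the fetal libraries, flox-control library 5, heterozygous-deletion libraries 3 and 4 and S34F libraries 2, 3 and 4 held none, and homozygous-deletion library 4 held 3. The labels do not say whether libraries of a group came from separate animals, so p-values measure only the spread between these libraries. Samples were bulk, so fewer cells of a type and less RNA per cell cannot be told apart.

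Upstream sequence is shown for 4 of the 5 members whose RefSeq promoter window (GRCm38.p6) holds the p53 decamer, the 10-base unit of which 2 make a p53 response element, because the results below turn on most of them. The decamer consensus is its own reverse complement, so 1 search covers both strands. Windows of 250 bases before the start were found for 9 of the 10 members, and Trp53inp1 was not in the table of windows. A decamer lay in a window of 5 members, Cdkn1a, Mdm2, Ccng1, Sesn1 and Aen, while 8.2% of all 27025 genes with a window had one. Only exact matches to the consensus were counted. Cdkn1a alone among the members had 2 such decamers at most 13 bases apart, as 0.0666% of genes did. Capitals mark the decamers, and each line reads 5′ to 3′ on the strand of its gene. The Sesn1 line comes from the second of its 2 annotated starts, and so lies inside the gene, downstream of the first start.
Cdkn1a, chr17:29090896-29090947 (+): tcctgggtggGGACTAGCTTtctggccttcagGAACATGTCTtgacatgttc
Mdm2, chr10:117710920-117710959 (-): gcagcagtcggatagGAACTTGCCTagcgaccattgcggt
Ccng1, chr11:40755447-40755486 (-): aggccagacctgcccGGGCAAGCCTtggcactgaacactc
Sesn1, chr10:41887251-41887290 (+): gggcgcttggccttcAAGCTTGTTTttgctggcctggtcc
The decamers of Cdkn1a begin 73 and 51 bases before the first of its 2 annotated starts, with 12 bases between them. The stretch tgacatgttc straight after the second decamer departs from the consensus only in its first base, and so is not in capitals. The window of its second start, further downstream, holds none. Decamers of Mdm2, Ccng1 and Sesn1 begin 186, 185 and 173 bases before the start used. That of Aen begins 121 bases before 1 of its annotated starts, and its sequence is not shown because it overlaps a transcribed 5′ end. The windows of Phlda3, Btg2, Gdf15 and Fas hold no match to these letters. A match describes the sequence and not binding, since no binding was measured.

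Within the flox control the members covered a wide range of levels. Per kilobase of exon, Ccng1 (cyclin G1) was the highest at a mean of 23.0 CPM per kb, followed by Btg2 at 19.4, Aen at 12.5, Mdm2 at 11.1 and Sesn1 at 10.3. Cdkn1a, which encodes the cyclin-dependent kinase inhibitor p21, stood at 5.95 CPM per kb. Phlda3 was at 1.92, Trp53inp1 at 0.833, Fas at 0.234 and Gdf15 at 0.139. Gdf15 rested on 1 to 21 counts per library in the 15 fetal libraries and Fas on 7 to 50, so changes in these 2 genes were hardly measurable in the fetal groups. In adults Gdf15 had 16 to 200 counts and Fas 39 to 173. All values below are CPM scaled by TMM (the trimmed mean of M values) unless another scale is named.

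**Figure D1:**
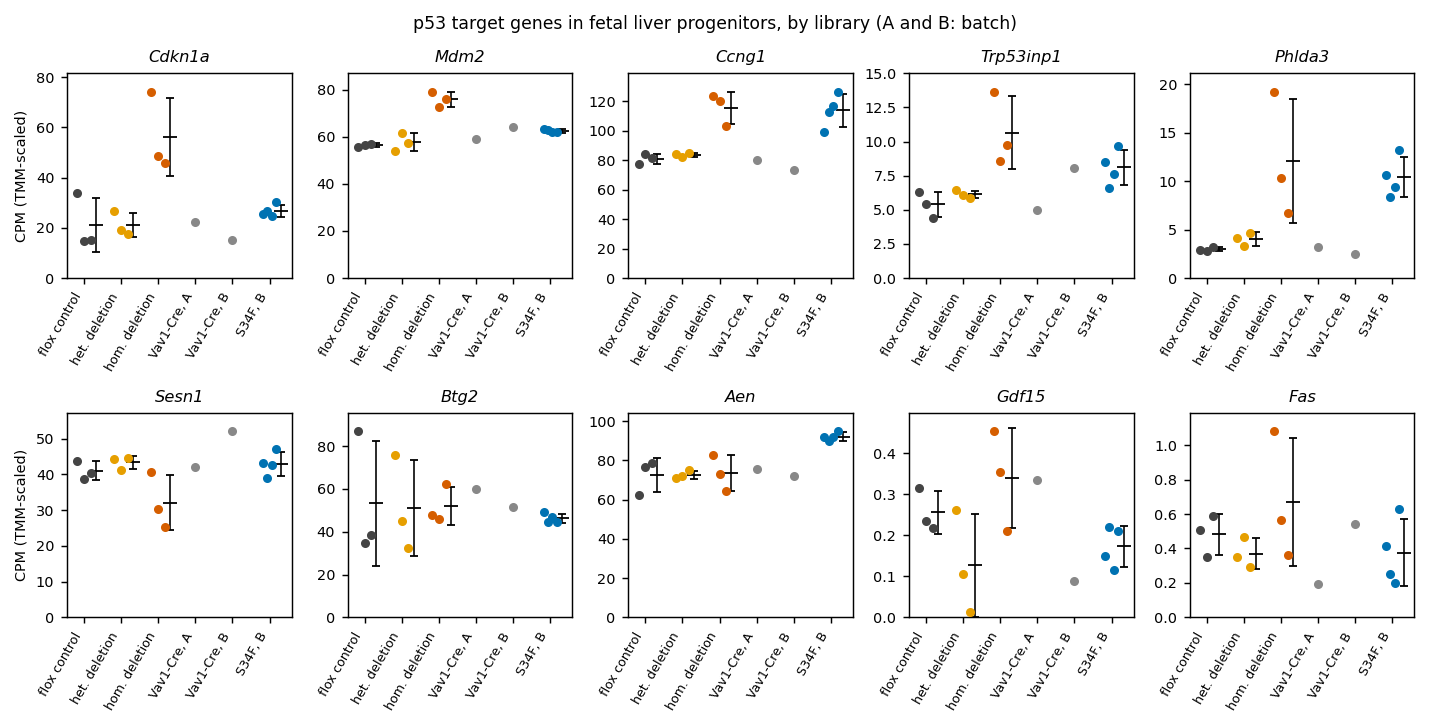
Level of each of the 10 genes in the 15 fetal liver libraries, in CPM scaled by TMM on a linear axis from 0. Points are libraries, the horizontal tick and bar beside them are the mean and SD of the group, and Vav1-Cre has 1 library in each batch. The 3 homozygous-deletion libraries sit above all flox-control and heterozygous-deletion libraries for Cdkn1a, Mdm2, Ccng1, Trp53inp1 and Phlda3.

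Homozygous deletion of U2af1 went with higher expression of 5 of the 10 genes than in the flox control, which asks what loss of both alleles does to the p53 program. Phlda3, Cdkn1a, Trp53inp1, Ccng1 and Mdm2 rose, Sesn1 fell, and Btg2, Aen, Gdf15 and Fas did not pass the test. Thus 6 of 10 were called at an adjusted p under 0.05, in a comparison that called 41.0% of all 12678 genes tested. By direction, 5 of 10 rose where 18.5% of all genes did, and 1 fell where 22.4% did. The median log2 fold change was 0.43 over the 10 genes and -0.018 over all genes. No overlap between the 2 groups, with the deletion higher, was seen for 5 of 10 members and for 22.8% of all genes.

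Phlda3 (chr1:135766119-135769136, + strand) encodes a pleckstrin-homology protein that competes with Akt for membrane lipids and so restrains growth signalling. Its levels were 2.92, 2.82 and 3.25 CPM in flox-control libraries 3, 4 and 5, and 19.2, 10.3 and 6.72 CPM in homozygous-deletion libraries 2, 3 and 4. All 3 deletion libraries were well above the controls, though they differed widely from each other. This came to a log2 fold change of 1.99 ± 0.31 (SE; edgeR adjusted p = 0.000679), the largest of the 10 genes in this comparison.

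Cdkn1a (chr17:29090976-29100727, + strand) stood at 33.7, 14.7 and 14.98 CPM in the flox control and at 74.1, 48.6 and 45.9 CPM in the homozygous deletion. Control library 3 was higher than the other 2 controls but still below every deletion library. Between the groups it differed 2.62-fold (log2 fold change 1.39 ± 0.31, edgeR adjusted p = 0.00449). Trp53inp1 (chr4:11156431-11174379, + strand), a nuclear protein that promotes arrest and death under stress, was at 6.32, 5.43 and 4.42 CPM in the flox control and 13.6, 8.56 and 9.73 CPM in the homozygous deletion. The groups did not overlap, and the log2 fold change was 0.96 ± 0.19 (edgeR adjusted p = 0.00235).

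Ccng1 and Mdm2 moved less, on much higher levels. Ccng1 (chr11:40748552-40755311, - strand) read 77.0, 84.0 and 81.2 CPM in the flox control and 123, 120.2 and 103 CPM in the homozygous deletion. All deletion libraries lay above all controls, with a log2 fold change of 0.50 ± 0.064 (edgeR adjusted p = 0.000208). Mdm2 (chr10:117688875-117710758, - strand) read 55.8, 56.6 and 57.1 CPM in the flox control and 79.0, 72.8 and 76.0 CPM in the homozygous deletion. The controls agreed within a SD of 0.666 CPM, and the log2 fold change was 0.41 ± 0.070 (edgeR adjusted p = 0.00107).

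Sesn1 (chr10:41809935-41908424, + strand), a sestrin that restrains the growth kinase complex mTORC1, went the other way. It was at 43.8, 38.6 and 40.5 CPM in the flox control and at 40.7, 30.5 and 25.3 CPM in the homozygous deletion. Deletion library 2 lay within the range of the controls, and the other 2 lay below it. Its log2 fold change was -0.37 ± 0.13 (edgeR adjusted p = 0.0387), and this call was lost when flox-control library 3, 4 or 5 or homozygous-deletion library 3 or 4 was left out (adjusted p from 0.0592 to 0.149).

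Aen (chr7:78895854-78911209, + strand), a nuclease that takes part in p53-driven cell death, showed nearly the same mean in both groups. Its flox-control libraries read 62.7, 76.7 and 78.6 CPM, and its homozygous-deletion libraries 82.9, 72.9 and 64.5 CPM. The ranges overlapped, with a log2 fold change of -0.0029 ± 0.098 (edgeR adjusted p = 0.985). Fas (chr19:34290666-34327772, + strand), the death receptor, was at 0.353 to 0.588 CPM in the flox control and 0.361 to 1.08 CPM in the homozygous deletion (edgeR adjusted p = 0.434). Gdf15 (chr8:70629393-70632456, - strand), a secreted stress cytokine, was at 0.219 to 0.316 and 0.211 to 0.454 CPM (edgeR adjusted p = 0.671).

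The homozygous-deletion libraries were not alike. Library 2 was the highest of the 3 for 9 of the 10 genes, all but Btg2, including genes that did not pass the test. Leaving it out kept the same 6 genes called. Other cell types moved with this comparison. Granulocyte markers (4 measured of 6) summed to 2152 to 3081 CPM in the homozygous deletion and 958 to 1784 CPM in the flox control. B-cell markers (5 measured of 6) fell outside each other's ranges, at 23.6 to 26.3 against 57.9 to 120 CPM, and so did megakaryocyte markers (3 measured of 4), at 65.4 to 110 against 156 to 205 CPM. Macrophage markers (7 measured of 7) were at 39.3 to 62.0 against 91.0 to 101 CPM, and erythroid markers at 267 to 329 against 453 to 655 CPM. Of the progenitor markers, Kit (231 to 323 against 484 to 572 CPM) and Cd34 (204 to 350 against 419 to 493 CPM) were lower in the homozygous deletion and Gata2 (507 to 523 against 261 to 280 CPM) higher, without overlap. The part of these differences in the result was not tested. Hepatocyte markers did not overlap between the 2 groups either. With their mean log2 CPM as a covariate, Ccng1 (edgeR adjusted p = 0.00663) and Phlda3 (0.0115) kept their calls. Calls were lost for Cdkn1a (log2 fold change 1.04 ± 0.58, edgeR adjusted p = 0.288), Mdm2 (0.35 ± 0.16, 0.194), Trp53inp1 (1.04 ± 0.39, 0.123) and Sesn1 (-0.13 ± 0.26, 0.792). The SE of each of these genes grew. Log2 fold changes of Mdm2 and Trp53inp1 stayed close to those without the covariate (0.41 and 0.96). Those of Cdkn1a and Sesn1 shrank, from 1.39 and -0.37. The number of all genes called dropped from 5194 to 1247.

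Heterozygous deletion left none of the 10 genes past the threshold against the flox control, in a comparison that called 0.0316% of 12678 genes with edgeR (4 genes, and 1120 at an unadjusted p under 0.05). No member was called under any other setting run, including DESeq2, which called 119 genes. Phlda3 read 4.08, 3.31 and 4.68 CPM with 1 allele deleted and 2.82 to 3.25 CPM in the flox control. These groups did not overlap, with the deletion higher, as was so for 8.06% of all genes, but the log2 fold change of 0.43 ± 0.31 did not pass the test (edgeR adjusted p = 0.728). The other 9 overlapped. Cdkn1a was at 26.7, 19.3 and 17.7 CPM, with a log2 fold change of 0.010 ± 0.30 (edgeR adjusted p = 0.996). Mdm2 differed by 0.036 ± 0.070 and Ccng1 by 0.060 ± 0.064 on the log2 scale.

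Set directly against the heterozygous deletion, the homozygous deletion had 6 of 10 genes called, 5 higher and 1 lower, where 42.3% of all genes were called, 19.8% higher and 22.4% lower. This contrast uses the same 3 homozygous-deletion libraries as the one with the flox control, so the 2 are not independent. Phlda3 differed by 1.55 ± 0.31 on the log2 scale (edgeR adjusted p = 0.00224) and Cdkn1a by 1.38 ± 0.30 (0.00438). Trp53inp1 differed by 0.77 ± 0.19 (edgeR adjusted p = 0.00729), Ccng1 by 0.44 ± 0.064 (0.000382) and Mdm2 by 0.38 ± 0.070 (0.00166). In each of these 5 genes the 2 groups were free of overlap, as for 23.9% of all genes in that direction. Sesn1 read 44.2, 41.2 and 44.7 CPM in the heterozygous deletion, above all 3 homozygous-deletion libraries (as for 26.6% of all genes), with a log2 fold change of -0.46 ± 0.13 (edgeR adjusted p = 0.0140). Its call was lost without homozygous-deletion library 3 (edgeR adjusted p = 0.0692). Hepatocyte markers also separated these 2 groups. With them as a covariate, the 5 higher genes kept their calls and Sesn1 lost its call. Other markers separated the groups too, the homozygous deletion being named first. B-cell markers were at 23.6 to 26.3 against 68.3 to 91.8 CPM and megakaryocyte markers at 65.4 to 110 against 178 to 187 CPM. Granulocyte markers were at 2152 to 3081 against 925 to 1289 CPM, while macrophage and erythroid markers overlapped. The part of these cells in the result was not tested. Gdf15 did not pass the test here (log2 fold change 1.45 ± 0.69, edgeR adjusted p = 0.116) but did without heterozygous-deletion library 3 (2.47 ± 0.73, adjusted p = 0.0242).

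Libraries with the S34F allele were compared with Vav1-Cre alone, where the only control of the same batch was 1 library. The fit held all 15 fetal libraries with batch as a term, and the spread of that lone library was assumed to be that of the other groups. Ccng1 rose, as 1 of 10 members called where 0.372% of 13973 genes were called and 0.0716% were called higher. It read 99.1, 113, 117 and 126 CPM in S34F libraries 1 to 4 and 73.4 CPM in the batch B control. All 4 lay above both Vav1-Cre libraries, of which the batch A one read 79.9 CPM. The log2 fold change was 0.65 ± 0.11 (edgeR adjusted p = 0.0257), and the call was lost without S34F library 2, 3 or 4 (adjusted p from 0.0510 to 0.0801).

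Phlda3 had the largest difference among the members but did not pass the test. Its S34F libraries read 10.6, 8.40, 9.39 and 13.2 CPM, against 2.49 CPM in the batch B control and 3.19 CPM in the batch A one. The 4 S34F libraries were all far above both controls. Even so, the log2 fold change of 2.08 ± 0.45 had an edgeR adjusted p of 0.0699. Aen read 92.2, 89.9, 91.7 and 95.0 CPM with S34F, above 72.3 CPM in the control (log2 fold change 0.37 ± 0.12, edgeR adjusted p = 0.2503). The S34F group also had the highest mean of Aen among all groups. The next in rank was the single Vav1-Cre library of batch A, so batch differs between them as well. Cdkn1a read 25.4, 26.8, 24.9 and 30.2 CPM against 15.3 CPM in the control (log2 fold change 0.82 ± 0.39, edgeR adjusted p = 0.442). Mdm2, at 61.8 to 63.2 CPM with S34F, was at 64.2 CPM in the control. B-cell markers separated the groups, at 40.1 to 44.9 CPM with S34F against 80.3 and 68.9 CPM in the batch B and batch A Vav1-Cre libraries. Progenitor markers other than Gata2 were lower with S34F as well, against these libraries in the same order. Kit was at 437 to 478 against 486 and 544 CPM, and Cd34 at 378 to 414 against 550 and 432 CPM. Myb was at 678 to 754 against 762 and 1005 CPM, and Mpo at 7302 to 8611 against 8836 and 13187 CPM. S34F libraries 2, 3 and 4 held no Y-linked reads while both Vav1-Cre libraries did. The part of these differences in the result was not tested. With batch B libraries alone in the fit, Cdkn1a, Phlda3 and Aen were called higher beside Ccng1. Without overlap between S34F and the Vav1-Cre library of its batch, 5 members were higher (Cdkn1a, Ccng1, Phlda3, Aen and Gdf15) and 3 were lower (Mdm2, Sesn1 and Btg2). Of all genes 26.2% were higher and 29.6% lower in that way, with a single library as the control.

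**Figure D2:**
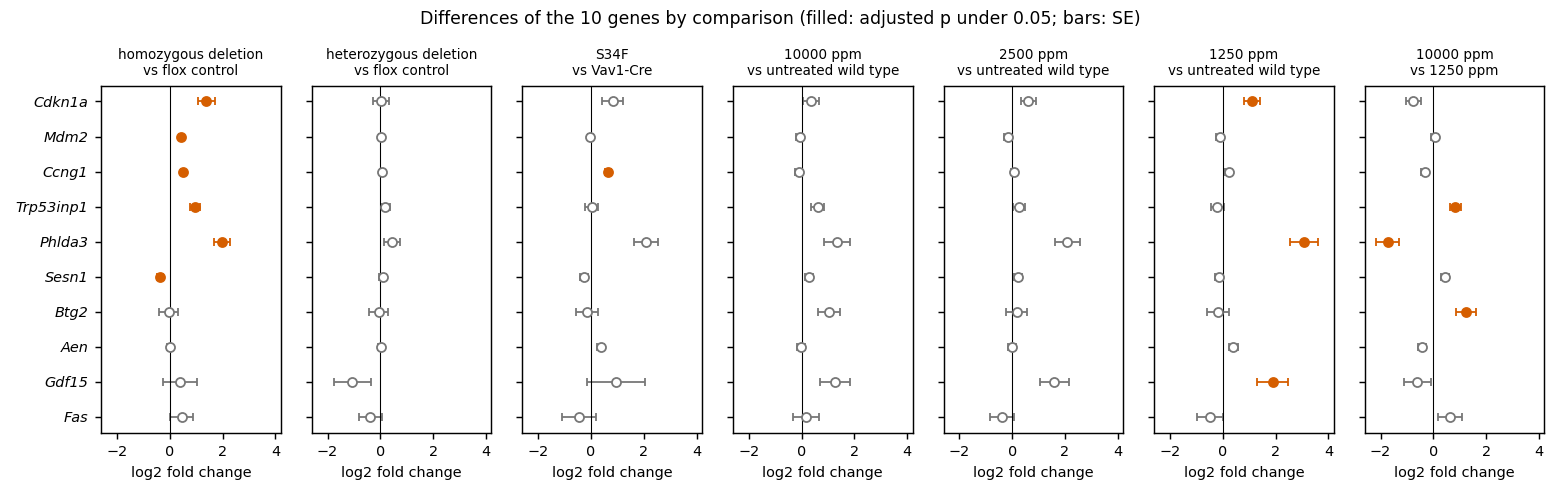
Log2 fold change of the 10 genes (first-named group minus second) in 7 comparisons, with bars of 1 SE. Filled points passed an edgeR adjusted p under 0.05 and open points did not. Phlda3 lies furthest right in every comparison but that of 10000 with 1250 ppm, where it lies furthest left at -1.73. It is at 1.99 in the homozygous deletion, 0.43 in the heterozygous deletion and 2.08 with S34F. Against the untreated wild type it is at 1.34 at 10000 ppm, 2.08 at 2500 ppm and 3.07 at 1250 ppm.

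In adult marrow the question was how the dose of doxycycline, which turns on the wild-type U2AF1 transgene, bears on the same genes. The level of the transgene itself was not known. Against the untreated wild type, the lowest dose of 1250 ppm gave higher Phlda3, Cdkn1a and Gdf15. Those 3 of 10 members were called, all higher, where 11.4% of 13338 genes were called and 6.76% were called higher. The 10000 ppm group had 0 members called, where 1.27% of genes were (169, and 2974 at an unadjusted p under 0.05). The 2500 ppm group also had 0 with edgeR, where 0.487% of genes were called (65, and 2027 at an unadjusted p under 0.05). DESeq2 called Phlda3 at 10000 ppm, and Phlda3 and Gdf15 at 2500 ppm. All 3 comparisons share the same 3 control libraries.

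**Figure D3:**
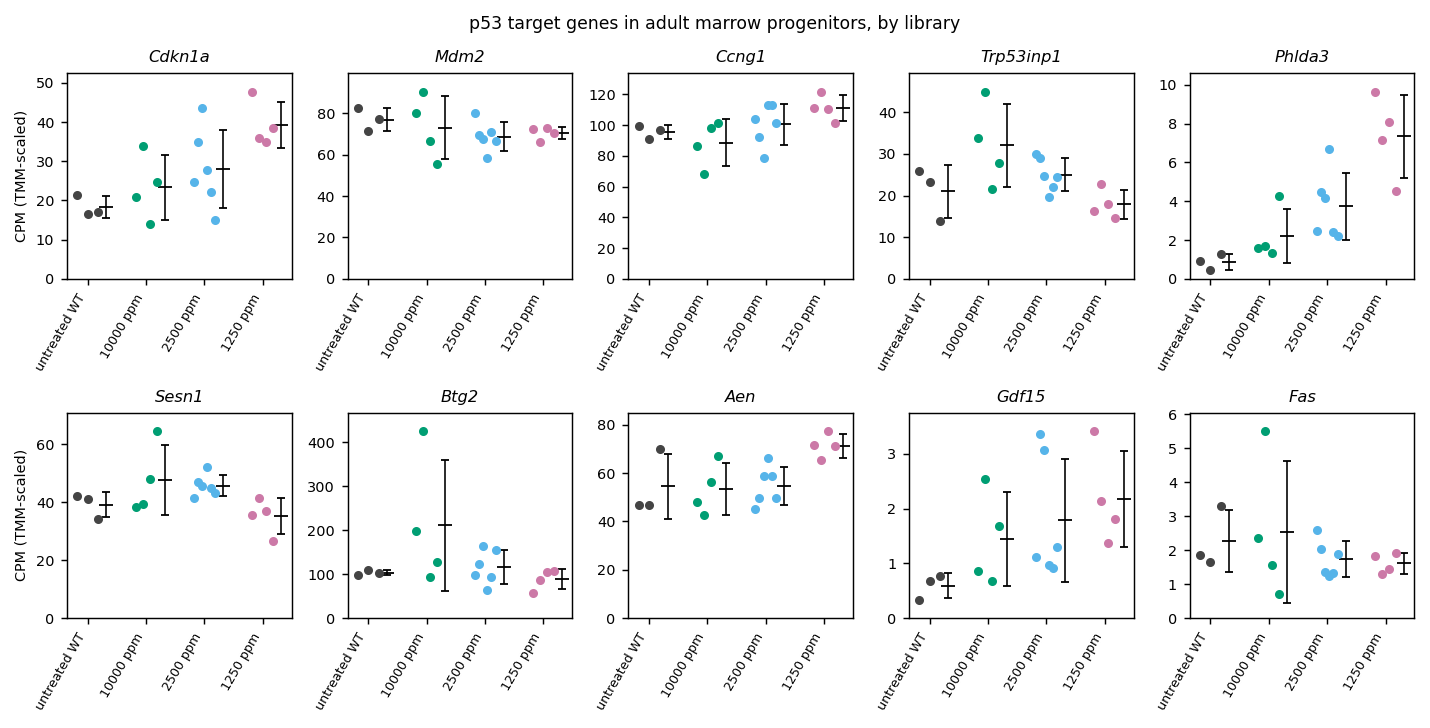
Level of each of the 10 genes in the 17 adult marrow libraries, in CPM scaled by TMM on a linear axis from 0. Points are libraries, and the tick and bar beside them are the mean and SD of the group. Phlda3 is lowest in the untreated wild type and highest at 1250 ppm, and Btg2 has 1 library at 425 CPM in the 10000 ppm group.

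Phlda3 was lowest in the untreated wild type, at 0.902, 0.470 and 1.27 CPM in libraries 1, 2 and 3. At 10000 ppm it read 1.59, 1.69, 1.32 and 4.27 CPM in libraries 1 to 4. At 2500 ppm it ran from 2.21 to 6.67 CPM with a median of 3.33. At 1250 ppm it read 9.64, 7.16, 8.08 and 4.53 CPM in libraries 1, 3, 4 and 5. Each dose group lay wholly above the untreated wild type, as did 8.16% of all genes at 10000 ppm, 5.48% at 2500 ppm and 16.3% at 1250 ppm, and the 2500 ppm group overlapped with both other doses. The log2 fold change against the wild type was 1.34 ± 0.48 at 10000 ppm (edgeR adjusted p = 0.126) and 2.08 ± 0.47 at 2500 ppm (0.0577). It was 3.07 ± 0.51 at 1250 ppm (edgeR adjusted p = 0.00732) and ran from 2.75 to 3.44 over the 14 other settings run, all past the threshold. At 2500 ppm it passed without library 1 (edgeR adjusted p = 0.0454) or library 6 (0.0459).

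Cdkn1a read 21.4, 16.5 and 17.005 CPM in the untreated wild type. It read 20.9, 33.99, 13.9 and 24.6 CPM at 10000 ppm, and 14.9 to 43.7 CPM with a median of 26.2 at 2500 ppm. At 1250 ppm it read 47.7, 35.9, 34.9 and 38.4 CPM. Only the 1250 ppm libraries were all above the wild type, and the other doses spread over both. The log2 fold change at 1250 ppm was 1.11 ± 0.31 (edgeR adjusted p = 0.0338), against 0.36 ± 0.30 at 10000 ppm (0.514) and 0.60 ± 0.29 at 2500 ppm (0.329).

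Gdf15 read 0.336, 0.668 and 0.767 CPM in the untreated wild type and 3.41, 2.13, 1.37 and 1.80 CPM at 1250 ppm. These groups did not overlap, and the log2 fold change was 1.89 ± 0.58 (edgeR adjusted p = 0.0470). At 10000 ppm it read 0.857, 2.55, 0.678 and 1.68 CPM, and at 2500 ppm 0.916 to 3.36 CPM with a median of 1.20. The 2500 ppm libraries lay above the wild type too (log2 fold change 1.59 ± 0.55, edgeR adjusted p = 0.182).

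The calls of Cdkn1a and Gdf15 at 1250 ppm each rested on the whole set of libraries. Both were lost without 1250 ppm library 1, 4 or 5 or untreated library 1, 2 or 3, and Gdf15 also without 1250 ppm library 3. Their log2 fold changes then stayed between 1.01 and 1.23 for Cdkn1a (adjusted p from 0.0560 to 0.125) and between 1.59 and 2.10 for Gdf15 (0.0581 to 0.182). With the presence of Y-linked reads as a covariate, both missed the threshold (edgeR adjusted p = 0.0722 and 0.0640). Among the adults this covariate sets apart only untreated library 3, so it is not a check separate from leaving that library out. Granulocyte markers were lower at 1250 ppm, at 4337 to 5624 CPM, than in the untreated wild type, at 6010 to 15310 CPM. B-cell markers were higher at 1250 ppm, at 38.4 to 49.6 against 18.5 to 25.7 CPM. Of 7 macrophage markers, Vcam1 was lower at 1250 ppm (97.3 to 160 against 336 to 445 CPM), and it made up most of the list's sum. C1qa, C1qb, C1qc, Cd5l and Mrc1 were higher at 1250 ppm without overlap, C1qa at 1.75 to 15.6 against 0.126 to 0.488 CPM, and log2 CPM averaged over all 7 came to 2.39 to 4.47 against 0.271 to 1.23. The part of these cells in the result was not tested.

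Ccng1 lay above the wild type at 1250 ppm, at 101 to 122 against 90.7 to 99.3 CPM, without overlap, but did not pass the test (log2 fold change 0.23 ± 0.13, edgeR adjusted p = 0.238). It was thus 1 of 4 members wholly above the wild type at that dose, as 16.3% of all genes were. Aen read 71.5, 65.3, 77.3 and 71.4 CPM at 1250 ppm and 47.0, 46.7 and 69.9 CPM in the untreated wild type. Untreated library 3 alone reached the range of the treated libraries. The log2 fold change was 0.40 ± 0.17 (edgeR adjusted p = 0.112), and without that library it was 0.60 ± 0.17 (adjusted p = 0.0401).

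Mdm2, which was higher in the fetal homozygous deletion, showed no call in any adult comparison. It was at 71.4 to 82.4 CPM in the untreated wild type and at 66.3 to 72.9 CPM at 1250 ppm, with a log2 fold change of -0.11 ± 0.14 (edgeR adjusted p = 0.613). Fas was at 1.64 to 3.31 CPM in the wild type and 1.29 to 1.93 CPM at 1250 ppm (edgeR adjusted p = 0.541). It was called in no comparison, fetal or adult.

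Within the dose series all groups share genotype and pIpC, so the highest and lowest doses were also compared directly. Exposure to doxycycline and the transgene it turns on change together in this series and cannot be told apart. At 10000 ppm Phlda3 was lower and Trp53inp1 and Btg2 were higher than at 1250 ppm, which makes 3 of 10 called where 18.1% of all genes were (7.53% higher and 10.6% lower at 10000 ppm). Phlda3 differed by -1.73 ± 0.43 on the log2 scale (edgeR adjusted p = 0.0136), with no overlap, and was called under all 15 other settings. Megakaryocyte markers separated the 2 doses too, at 68.2 to 221 CPM at 10000 ppm against 30.2 to 61.3 CPM at 1250 ppm, and granulocyte markers ran from 2231 to 39964 against 4337 to 5624 CPM. Their part in the result was not tested. Trp53inp1 read 33.8, 44.9, 21.6 and 27.9 CPM at 10000 ppm, 19.5 to 30.1 CPM with a median of 24.7 at 2500 ppm, and 16.4, 22.7, 17.9 and 14.7 CPM at 1250 ppm. Only 1250 ppm library 3 reached into the range of the 10000 ppm libraries. The log2 fold change was 0.83 ± 0.22 (edgeR adjusted p = 0.0192), and the call was lost without 10000 ppm library 2 (0.62 ± 0.21, adjusted p = 0.0711), 1250 ppm library 1 (0.0555) or 1250 ppm library 5 (0.0652). It was also lost with only these 2 groups fitted (0.87 ± 0.23, edgeR adjusted p = 0.0514) and with the immediate-early covariate described below.

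Cdkn1a was lower at 10000 than at 1250 ppm in all libraries but missed the threshold (log2 fold change -0.76 ± 0.28, edgeR adjusted p = 0.0699). Cdkn1a and Phlda3 were the 2 members wholly lower at 10000 ppm, as were 13.4% of all genes. Without 10000 ppm library 2 it passed, at -0.999 ± 0.28 (edgeR adjusted p = 0.0379). Sesn1 read 38.3, 39.2, 48.0 and 64.4 CPM at 10000 ppm and 35.4, 41.4, 36.8 and 26.6 CPM at 1250 ppm, with overlap (log2 fold change 0.43 ± 0.15, edgeR adjusted p = 0.0526). It passed without 10000 ppm library 1 (edgeR adjusted p = 0.0356), 10000 ppm library 2 (0.0459) or 1250 ppm library 3 (0.0388). Ccng1 (edgeR adjusted p = 0.0616) and Aen (0.0611) lay lower at 10000 ppm without passing, and both passed without 10000 ppm library 4 (0.0461 and 0.0234).

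A slope on the log2 of the dose over the 14 dosed libraries called 3 of 10 members where 10.7% of 12849 genes were called, 5.39% rising and 5.32% falling with dose. Phlda3 fell by 0.54 ± 0.14 per doubling of the dose on the log2 scale (edgeR adjusted p = 0.0291). Trp53inp1 rose by 0.27 ± 0.069 (edgeR adjusted p = 0.0291) and Btg2 by 0.43 ± 0.12 (0.0397). The slope of Cdkn1a was -0.22 ± 0.095 (edgeR adjusted p = 0.142). All 3 calls were lost when 10000 ppm library 1 or 2 or 1250 ppm library 1, 4 or 5 was left out, and without 1250 ppm library 3 only that of Trp53inp1 held. The Btg2 call was lost as well without 2500 ppm library 2 or 5. Over these libraries the adjusted p ran from 0.0543 to 0.0935 for Phlda3, 0.0597 to 0.119 for Trp53inp1 and 0.0505 to 0.246 for Btg2.

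Btg2 (chr1:134075170-134079120, - strand), an antiproliferative protein that recruits the deadenylase machinery to mRNAs, followed another pattern than the rest. Its flox-control libraries read 87.0, 34.7 and 38.3 CPM, and its homozygous-deletion libraries 47.9, 46.1 and 62.5 CPM. The means hardly differed, because 1 control library was more than double the other 2 (log2 fold change -0.044 ± 0.36, edgeR adjusted p = 0.938). At 10000 ppm it read 198, 425, 94.4 and 128 CPM, and at 1250 ppm 58.0, 87.0, 105 and 107 CPM. Library 2 at 10000 ppm was far above the rest, and the log2 fold change of 1.24 ± 0.39 (edgeR adjusted p = 0.0353) became 0.64 ± 0.30 (0.178) without it. The call was also lost without 10000 ppm library 1 or 1250 ppm library 1, 3, 4 or 5 (adjusted p from 0.0564 to 0.103) and with only these 2 groups fitted (0.101).

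Immediate-early genes, which cells switch on within minutes of many stimuli, moved with Btg2. This list (Fos, Fosb, Egr1, Dusp1, Zfp36 and Nr4a1; 6 measured of 9) was written after the data were seen. Their mean log2 CPM was 6.64, 4.44 and 4.55 in flox-control libraries 3, 4 and 5. Library 3 was also the highest of these for 5 of 10 members, Cdkn1a, Trp53inp1, Sesn1, Btg2 and Gdf15. In the heterozygous deletion the immediate-early mean was 6.57, 5.02 and 4.31, and in the homozygous deletion 5.53, 5.73 and 6.28. At 10000 ppm it was 7.98, 9.42, 7.01 and 7.504, and the library at 9.42 was the one at 425 CPM of Btg2. With this mean as a covariate, the homozygous deletion against the flox control kept Phlda3, Cdkn1a, Trp53inp1, Ccng1 and Mdm2, lost Sesn1 and gained Btg2 as lower (log2 fold change -0.28, edgeR adjusted p = 0.0118). For 10000 against 1250 ppm, Btg2 then differed by 0.54 ± 0.15 (edgeR adjusted p = 0.0243) and Cdkn1a by -1.01 ± 0.27 (0.0231), while Sesn1 was gained (0.0252) and Trp53inp1 lost (0.65 ± 0.22, adjusted p = 0.0616). The dose slope lost all 3 of its calls under this covariate, Phlda3 at -0.49 (edgeR adjusted p = 0.0726), Trp53inp1 at 0.20 (0.0920) and Btg2 at 0.18 (0.0571).

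**Figure D4:**
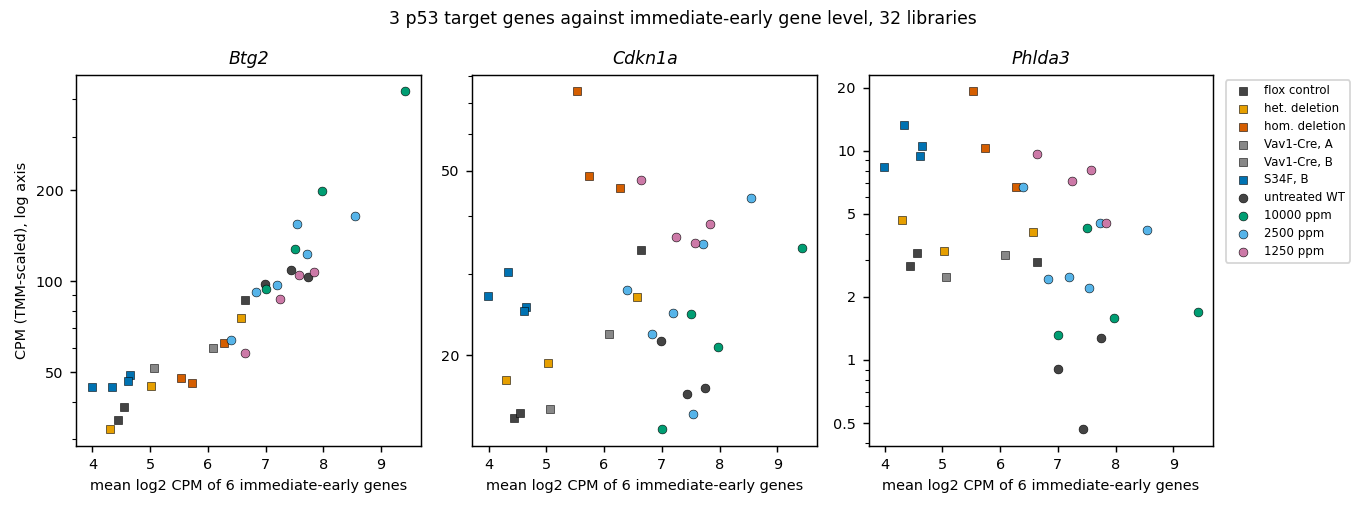
Level of Btg2, Cdkn1a and Phlda3 (CPM scaled by TMM, log axis) against the mean log2 CPM of 6 immediate-early genes in each of the 32 libraries. Squares are fetal and circles adult libraries, coloured by group. Btg2 climbs with the immediate-early mean to 425 CPM at 9.42, and homozygous-deletion libraries lie at 45.9 to 74.1 CPM of Cdkn1a at means of 5.53 to 6.28.

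Across all 9 groups the order of the levels differed by gene. Cdkn1a was highest in the homozygous deletion (mean 56.2 ± 15.6 CPM, n = 3), then at 1250 ppm (39.2 ± 5.81, n = 4), 2500 ppm (28.0 ± 10.1, n = 6), S34F (26.8 ± 2.40, n = 4) and 10000 ppm (23.3 ± 8.38, n = 4). Neighbours in that order overlapped down to the untreated wild type (18.3 ± 2.73, n = 3). Phlda3 was also highest in the homozygous deletion (12.1 ± 6.43 CPM, n = 3), followed by S34F (10.4 ± 2.07, n = 4) and 1250 ppm (7.35 ± 2.14, n = 4), which overlapped in turn. Trp53inp1 was at 13.9 to 44.9 CPM in the 17 adult libraries and 4.42 to 13.6 CPM in the 15 fetal ones, which differ in tissue, age, genotype and treatment at once. Mdm2 had its highest mean in the untreated adult wild type (77.0 ± 5.53 CPM, n = 3), overlapping with the homozygous deletion (75.9 ± 3.13, n = 3).

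The genes whose centred log2 CPM lay nearest to that of Cdkn1a over the 9 batch A libraries were Epha2, a receptor tyrosine kinase, Bbc3, the death-promoting p53 target Puma, and Dusp6, a phosphatase of ERK kinases. Their root-mean-square differences from Cdkn1a were 0.220, 0.231 and 0.242 on the log2 scale, beside a median of 0.827 over 12677 genes. Of the other members, Trp53inp1 ranked 77th and Phlda3 ranked 241st in nearness, and Sesn1 ranked 8320th. Over the 17 adult libraries the nearest were Tubb6, Lrp1 and Sbf2, at 0.275, 0.277 and 0.277 beside a median of 0.634 over 13337 genes. Aen was the nearest member there, at 0.505, and Phlda3 was at 0.8285.

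Other p53 pathway genes were described from lists, in which genes beyond those with the largest changes are named after their values were seen. Each count in the homozygous deletion stands beside 41.0% of all genes called, 18.5% higher and 22.4% lower, and a median of -0.018. Among 23 further cell-cycle and repair targets tested in the homozygous deletion relative to flox controls, 9 rose and 4 fell, with a median log2 fold change of 0.20. Zfp365, which guards replicating DNA, rose by 4.54 ± 0.73 on the log2 scale (edgeR adjusted p = 0.00076), from 1 to 8 counts per control library to 56 to 153. Eda2r, a TNF-receptor family member, rose by 3.64 ± 0.65 (edgeR adjusted p = 0.00145). The 4 that fell were Plxnb2, the plexin B2 receptor (-1.91 ± 0.11, edgeR adjusted p = 1.93e-06), Ptpn14 (-1.78), Dcxr (-0.90) and Abhd4 (-0.31). Sesn2, the paralog of Sesn1 and also a target of the stress factor ATF4, rose by 0.89 ± 0.16 (edgeR adjusted p = 0.00135), while Sesn1 fell.

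Among 9 death targets tested other than the members, 6 rose and 2 fell (18.5% and 22.4% of all genes), with a median of 0.45. Tnfrsf10b, a TRAIL receptor, rose by 1.41 ± 0.19 (edgeR adjusted p = 0.000267), Bbc3 by 1.23 ± 0.24 (0.0024) and Perp by 1.15 ± 0.06 (1.34e-06). Pidd1 (-0.23) and Casp8 (-0.26) fell. Of 9 regulators of p53 tested, 0 rose and 5 fell with edgeR, with a median of -0.22. These were the kinases Atr (-0.55 ± 0.11, edgeR adjusted p = 0.00301), Chek2 (-0.40) and Atm (-0.32), the damage adaptor Trp53bp1 (-0.39) and the ubiquitin ligase Rchy1 (-0.22). Mdm4 was not analysed here.

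Cell-cycle genes that p21 is known to repress through the DREAM complex had 10 of 20 called, a share near the 41.0% of all genes. Of these 8 rose and 2 fell, with a median of 0.12. Rrm2, a ribonucleotide reductase subunit, rose by 0.87 ± 0.06 (edgeR adjusted p = 8.78e-06), the mitotic kinase Plk1 by 0.45 ± 0.05 (0.000119) and the transcription factor Mybl2 by 0.42 ± 0.05 (0.000169). Top2a (-0.17) and Cdc25c (-0.31) fell. Among 12 paralogs of the members, 2 rose and 2 fell, a smaller share than the 41.0% of all genes called. Phlda2 (1.37 ± 0.39, edgeR adjusted p = 0.0159) and Sesn2 were higher, and Cdkn1c (-1.26), which encodes another p21-family inhibitor, and Sesn3 (-0.95) were lower. ATF4 response genes, a stress program that does not need p53, had 6 of 10 higher and 0 lower with edgeR, with a median of 0.53. The largest changes were in Slc7a11, a cystine transporter (1.98 ± 0.18, edgeR adjusted p = 3.03e-05), Chac1 (1.70) and Trib3 (1.30). In the heterozygous deletion against the flox control, no gene of any of these lists was called.

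**Figure D5:**
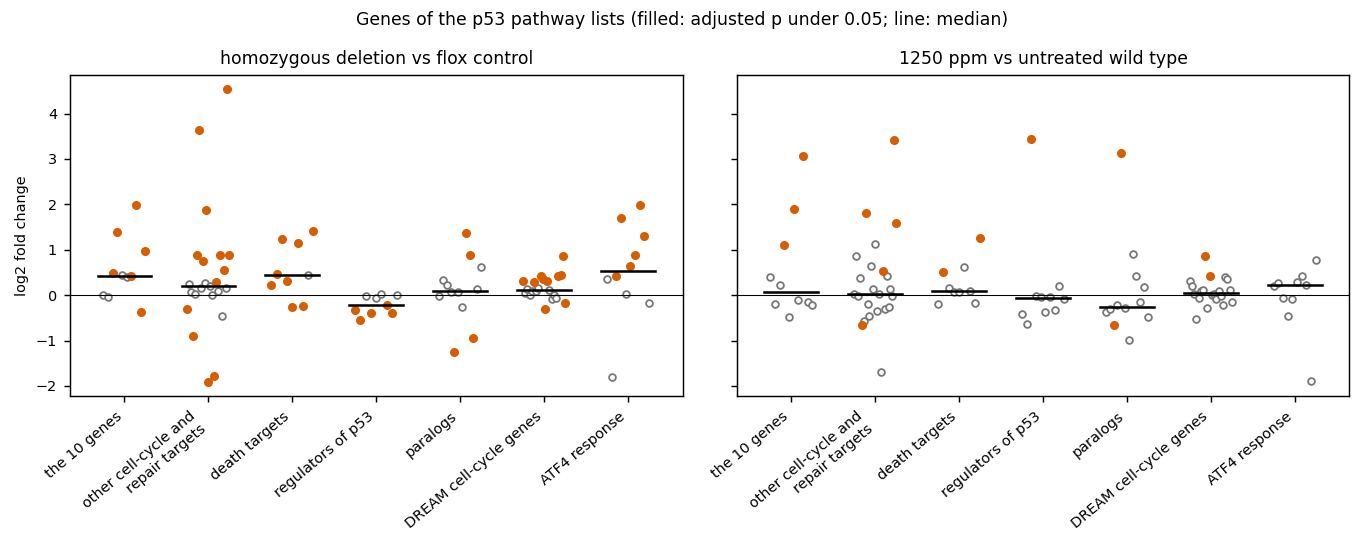
Log2 fold change of each gene of the p53 pathway lists in the homozygous deletion relative to flox controls (left) and at 1250 ppm against the untreated wild type (right). Points are genes, filled where the edgeR adjusted p was under 0.05, and bars are list medians. The 10 genes have a median of 0.43 on the left, where ATF4 response genes have 0.53 and regulators of p53 -0.22.

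Against the heterozygous deletion, which shares the homozygous-deletion libraries with the contrast above, 8 of 23 further targets rose and 4 fell (Zfp365 3.61 ± 0.66, edgeR adjusted p = 0.00146). Of 9 death targets 6 rose and 2 fell (Perp 1.12 ± 0.062), and of 9 regulators 0 rose and 4 fell with edgeR (Trp53bp1 -0.49 ± 0.070). Of 12 paralogs 2 rose and 1 fell (Phlda2 2.93 ± 0.42). DREAM genes had 12 of 20 higher and 0 lower (Rrm2 1.016 ± 0.064), and ATF4 genes 7 of 10 higher and 0 lower (Slc7a11 2.02 ± 0.18). Among all genes 19.8% were higher and 22.4% lower in this contrast.

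With S34F against Vav1-Cre, the death targets Pidd1 (0.48 ± 0.08, edgeR adjusted p = 0.0299) and Bax (0.45 ± 0.09, adjusted p = 0.0470) rose, and none of the 23 further targets was called. At 1250 ppm against the untreated wild type, Zfp365 (3.42 ± 0.61, edgeR adjusted p = 0.00836), Eda2r (1.82), Zmat3 (1.58) and Rps27l (0.54) rose and Ddb2 (-0.66) fell among 23. Tnfrsf10b (1.26 ± 0.30, edgeR adjusted p = 0.0186) and Bax (0.51) rose among 9 death targets. Cdkn2a, which encodes an inhibitor of Mdm2, had 5 to 15 counts per library at 1250 ppm and at most 1 in the controls, at least 2.76-fold higher against a floor of 3 counts per library. The DREAM genes Ccne1 (0.86) and Cdc20 (0.42) rose, as 2 of 20, and the ATF4 list had 0 of 10 called. Each count at 1250 ppm stands beside 11.4% of all genes called, 6.76% higher and 4.66% lower. List medians were 0.058 for the DREAM and 0.22 for the ATF4 genes, beside 0.0083 over all genes. The shares of all genes called with S34F are given above.

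Cdkn1c rose at all 3 doses against the untreated wild type, by 3.71 ± 0.68 at 10000 ppm (edgeR adjusted p = 0.0247), 3.67 ± 0.66 at 2500 ppm (0.0430) and 3.13 ± 0.67 at 1250 ppm (0.0141). Between 10000 and 1250 ppm, 4 of 23 further targets were higher and 5 lower, where 7.53% of all genes were higher and 10.6% lower. The higher ones were Ptpn14 (2.02 ± 0.67, edgeR adjusted p = 0.0463), Ddit4, Rrm2b and Ddb2, and the lower ones Zfp365 (-1.73), Eda2r (-1.41), Zmat3 (-1.19), Rps27l (-0.62) and Tigar (-0.55). The death targets Tnfrsf10b (-1.09), Bax (-0.63) and Bid (-0.23) were lower at 10000 ppm, as were 6 of 20 DREAM genes (10.6% of all genes), led by Mybl2 (-0.62 ± 0.13, edgeR adjusted p = 0.00642). Trp53inp2, the paralog of Trp53inp1, was higher at 10000 ppm (2.68 ± 0.62, edgeR adjusted p = 0.00997).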

How the data were processed

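Total RNA was depleted of ribosomal RNA and sequenced as paired reads of 150 bases, per the series' design text. Reads were aligned to GRCm38 with HISAT2 2.1.0, per the series' design text. The authors deposited 1 table of raw counts per gene and library, not normalized; the counting tool, its annotation and its use of strand are not given in the sources used here. Symbols were matched through GENCODE M21 for 27690 of 27728 IDs.

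From these counts, genes were filtered with filterByExpr, scaled by TMM and tested with the quasi-likelihood test of edgeR 4.0.16 in R 4.3.3, with Benjamini-Hochberg adjustment over all genes tested and a threshold of 0.05. Fetal deletions were fitted on 9 batch A libraries, S34F on 15 fetal libraries with batch as a term, adult groups on 17 libraries and the dose slope on 14. Printed CPM were scaled over all 32 libraries, with a prior count of 2 on the log2 scale. Alternatives were DESeq2 1.42.0, other scaling, no filter, other sample sets, covariates, a replicate block and leaving out each library. The covariate of immediate-early genes was added after seeing the data.

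Groups came from the labels. The 45 replicate pairs differed beyond counting noise (chi-square per degree of freedom 3.76 to 521), so none was treated as one library. On simulated counts with 100 changed genes per fold size, the fit recovered 58% of 2-fold and 82% of 4-fold changes for the homozygous deletion against the flox control (12678 genes). For 1250 ppm against the untreated wild type (13338 genes) it recovered 48% and 79%, and for S34F against Vav1-Cre (13973 genes) 66% and 70%. False calls made up 4.11%, 5.22% and 6.85% of all calls, in that order. Far fewer genes were changed there than the 5194 called for the homozygous deletion against the flox control. The rates therefore need not hold for the real fits. The members and gene lists were chosen with earlier results of these data known. Named beyond the members are, from each list, the 3 genes with the largest change past the threshold for homozygous deletion against flox control and 1 for each other comparison, plus genes said to be named after their values were seen. Genes nearest to Cdkn1a were the 3 with the smallest root-mean-square difference of centred log2 CPM.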

Additional observations from a re-analysis of the deposited data

Results flagged for a closer look

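In the 10000 ppm group, Phlda3 stood at 4.27 CPM in library 4 against 1.32 to 1.69 CPM in the other 3, a gap to the nearest library of 0.875 of the whole range (Dixon's test, 95% level). This was 1 of 40 combinations of gene and group with 4 to 10 libraries, where chance alone would give about 2. That library also had the lowest granulocyte marker sum of its group, at 2231 CPM against 10335 to 39964 CPM. Its part in the Phlda3 value was not tested.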

How the results depend on the processing

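Of 132 recounts of the members called, 99 stayed within 1.5 times the count reported, and of 1319 refitted member values 1214 kept direction and side of the threshold. The 1 reversal was Btg2 in the homozygous against the heterozygous deletion, at -0.224 ± 0.074 (edgeR adjusted p = 0.0323) with the immediate-early covariate. For the homozygous deletion against the flox control, the hepatocyte covariate gave 2 members called. For S34F, DESeq2 gave 2, no filter 3, the hepatocyte covariate 2 and batch B alone 4. For 10000 ppm against the wild type DESeq2 gave 1. For 2500 ppm DESeq2 gave 2, no filter 1 and the replicate block 1. For 10000 against 1250 ppm, DESeq2 gave 5, the replicate block 1 and a fit of the 2 groups alone 1. The slope gave 1 with the replicate block and 0 with the immediate-early covariate. Leaving out 1 library at a time gave 5 to 6 members for the homozygous deletion against the flox control and 5 to 7 against the heterozygous one. It gave 0 to 0 for the heterozygous deletion and for 10000 ppm against the wild type, 0 to 1 for S34F and for 2500 ppm, 1 to 2 for 1250 ppm, 1 to 5 for 10000 against 1250 ppm and 0 to 4 for the slope. S34F without its batch B control could not be fitted. The cause of these changes was not tested.

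Counts over all genes moved more. DESeq2 called 119 for the heterozygous deletion (4 with edgeR), 275 for S34F (52), 1055 for 10000 ppm (169), 567 for 2500 ppm (65), 2519 for 1250 ppm (1524) and 2227 for the slope (1376). Without a filter the calls were 230 for the heterozygous deletion, 187 for S34F, 702 for 1250 ppm and 1533 for 10000 against 1250 ppm. With the replicate block they were 438 for 1250 ppm, 1184 for 10000 against 1250 ppm and 33 for the slope, against 121 for 2500 ppm and 0 for the heterozygous deletion. The hepatocyte covariate gave 1247 for the homozygous deletion against the flox control (5194), 0 for the heterozygous deletion and 94 for S34F, and batch B alone gave 225 for S34F. The immediate-early covariate gave 9 for the heterozygous deletion, 130 for S34F, 48 for 10000 ppm, 106 for 2500 ppm and 435 for the slope. Fits of the 2 groups alone gave 0 for the heterozygous deletion, 1 for 10000 ppm, 4 for 2500 ppm, 3165 for 1250 ppm and 1052 for 10000 against 1250 ppm (2420). The Y-linked covariate, which sets apart only untreated library 3, left 0 for 10000 ppm and 1 for 2500 ppm. The rank of the dose gave 2069 for the slope.

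The replicate block lost Trp53inp1 in the homozygous against the heterozygous deletion (0.48 ± 0.17, edgeR adjusted p = 0.0714). It also lost Trp53inp1 (0.62 ± 0.20, adjusted p = 0.0750) and Btg2 (0.94 ± 0.40, 0.151) in 10000 against 1250 ppm, and both in the slope (0.113 and 0.176). Same-numbered libraries did not pair across all groups. Their deviations correlated at -0.161 to 0.143 in 7 fetal pairs, 1 of them over 0.1, and at -0.273 to 0.520 in 19 adult pairs, 6 of them over 0.1. The same-numbered library was the best match in 6 of 14 fetal and 12 of 38 adult lookups. Between 10000 and 2500 ppm, libraries 1, 2 and 4 correlated at 0.342, 0.331 and 0.520 with their same-numbered library. These were their best matches at 2500 ppm, while library 3 correlated at -0.273. Depth limits Gdf15 in the fetal libraries, at 1 to 21 counts.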
